A study of Mus musculus with 8 samples.

Results

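The immediate early genes *Fos*, *Fosb*, *Jun*, *Junb*, *Egr1*, *Egr2*, *Nr4a1*, *Nr4a2*, *Atf3* and *Ier3* were examined in epididymal white adipose tissue, 10 of the 18820 genes measured. The 10 genes were picked as acutely induced genes after the difference between Sucnr1-/- and wild-type (WT) mice had been seen in these arrays, and *Jun* was included because its difference ran the other way. All values of that difference are therefore given as a description, without a test. Each of the 10 genes had exactly 1 probe set (a group of array probes that reads 1 transcript). Its value is the log2 expression deposited by the authors.

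The study asked how loss of SUCNR1, the G protein-coupled receptor for succinate, affects adipose tissue. RNA of 8 male mice on a C57BL/6 background was hybridised, 4 WT and 4 Sucnr1-/-, with 1 Affymetrix Mouse Gene 1.1 ST array per mouse. Heterozygous parents were intercrossed and the homozygous offspring of both genotypes were used, so the control mice were littermates without the deletion. In the mutant allele an IRES/lacZ/neo cassette stands in place of a large part of the exon that encodes most of the receptor. The deletion is present in every cell of the body, and the arrays do not say in which cell type an mRNA was lost. All mice started a semi-synthetic low-fat diet (LFD) at 8 to 10 weeks of age, ate it for 16 weeks and were killed at 24 to 26 weeks. The paper gives a wider range of starting ages, with an older upper limit, than the one used here. It also describes glucose tolerance tests at the end of the diet periods, with fasting, an injection of glucose and blood taken from the tail. Blood was drawn by orbital extraction under isoflurane before cervical dislocation, and fat was dissected after that. Neither the time from first handling to freezing nor the order in which the mice were processed is given in the sources used here.

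Immediate early genes are transcribed within minutes of a stimulus because the factors that switch them on are already present and need only be phosphorylated. Growth factors, stress and calcium or cyclic AMP signals reach them through MAP kinases and protein kinase A, which act on SRF with its ELK partners and on CREB at short promoter elements. FOS and JUN family proteins pair as the AP-1 factor, EGR proteins are zinc finger factors, NR4A proteins are orphan nuclear receptors, and ATF3 is a stress-induced member of the ATF/CREB family. Their mRNAs decay quickly, and induced phosphatases and RNA-binding proteins end the response. Handling and dissection are known to induce these genes in many tissues.

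The promoters show which of these elements lie close to the transcription start. RefSeq windows from 250 bases before to 50 bases after the start, on GRCm38.p6, were found for 9 of the 10 genes, all but *Egr1*. Both strands were searched for the CREB half-site TGACG, the full site TGACGTCA, which contains the half-site, the AP-1-like site TGACATCA and the CArG box bound by SRF. Windows of 4 genes are shown, 5′ to 3′ on the gene's strand, because *Fos*, *Egr2* and *Nr4a1* had the largest mean differences in one direction and *Jun* the only one in the other. Capitals mark the matches, which read CGTCA where the half-site lies on the opposite strand. The windows lie at chr12:85473640-85473939 (plus strand) for *Fos*, chr10:67537619-67537918 (plus) for *Egr2*, chr15:101266596-101266895 (plus) for *Nr4a1* and chr4:95052173-95052472 (minus) for *Jun*.
Fos: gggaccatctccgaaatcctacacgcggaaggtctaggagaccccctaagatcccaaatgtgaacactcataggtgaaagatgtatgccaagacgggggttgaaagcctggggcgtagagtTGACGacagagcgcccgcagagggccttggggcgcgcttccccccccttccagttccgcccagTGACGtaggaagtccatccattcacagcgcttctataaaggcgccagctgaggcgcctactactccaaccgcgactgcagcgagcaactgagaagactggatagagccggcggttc
Egr2: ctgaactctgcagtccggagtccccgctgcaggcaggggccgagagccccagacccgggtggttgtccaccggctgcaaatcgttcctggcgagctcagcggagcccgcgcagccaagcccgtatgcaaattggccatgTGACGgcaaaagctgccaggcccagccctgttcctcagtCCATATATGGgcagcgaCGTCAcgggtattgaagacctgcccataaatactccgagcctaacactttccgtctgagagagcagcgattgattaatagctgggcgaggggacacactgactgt
Nr4a1: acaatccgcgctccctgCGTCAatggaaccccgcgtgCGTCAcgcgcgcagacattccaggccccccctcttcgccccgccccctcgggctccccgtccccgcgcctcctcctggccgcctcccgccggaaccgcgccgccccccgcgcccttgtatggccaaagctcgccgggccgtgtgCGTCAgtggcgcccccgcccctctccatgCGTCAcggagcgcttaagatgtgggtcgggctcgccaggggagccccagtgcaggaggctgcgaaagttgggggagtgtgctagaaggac
Jun: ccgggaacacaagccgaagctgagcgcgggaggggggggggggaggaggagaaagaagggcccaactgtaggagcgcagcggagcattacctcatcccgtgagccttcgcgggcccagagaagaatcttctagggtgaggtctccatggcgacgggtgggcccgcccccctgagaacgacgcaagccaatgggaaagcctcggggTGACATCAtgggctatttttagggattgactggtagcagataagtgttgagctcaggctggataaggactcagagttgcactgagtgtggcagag
The half-site TGACG was found in 7 of the 9 genes (*Fos*, *Fosb*, *Junb*, *Egr2*, *Nr4a1*, *Nr4a2* and *Atf3*), against 23% of the 27025 genes with a window. In *Fos* the matches began 129 and 66 bases before the start, and in *Nr4a1* they began 233, 213, 69 and 40 bases before it. *Egr2* had 5 windows, and the one printed is the first by position among those with the most kinds of motif. It holds half-sites 111 and 55 bases before the start, with a CArG box between them at 72 bases. The window at chr10:67537316-67537615 held a CArG box but no half-site. *Egr2* alone of the 9 had a CArG box in this search, a motif found in 1.81% of genes. *Jun* had no CREB half-site. It alone had TGACATCA, 45 bases before the start, a site found in 4.18% of genes. The full site TGACGTCA was in none of the 9 and in 2.03% of all genes. A match is a string of letters in this window, not a measured binding site.

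The tissue read as fat in all 8 mice. Of 14 adipocyte markers, 13 were measured, with mean log2 expression between 9.61 and 13.6 and a summed level (the log2 of the markers' added linear values) between 16.5 and 16.8 in every mouse, while 7 measured epididymis genes lay between 4.03 and 5.18. *Sucnr1* itself was lower in every Sucnr1-/- mouse (5.41 to 7.11) than in any WT mouse (8.68 to 9.78), at 6.15 ± 0.71 against 9.20 ± 0.48 (SD, n = 4 each). That difference gave an exact two-sided permutation p of 0.0286, the smallest that 4 against 4 mice allows, and a limma adjusted p of 0.321. Some probes of this set could lie in sequence that the mutant allele retains. Array medians ran from 6.28 to 6.36. Across the 18820 genes, limma called 0 genes, 0%, when an adjusted p under 0.05 was required. Without adjustment, 6.82% of genes had a p under 0.05, 652 (3.46%) higher and 632 (3.36%) lower in Sucnr1-/- mice. The methods' t-test also called 0 genes after adjustment, with 686 higher and 561 lower before it. The unadjusted split depended on scaling: with each array centred on its median over all probe sets it was 355 higher and 979 lower, and with centring over the genes kept it was 1352 higher and 330 lower.

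Among the AP-1 genes, *Fos*, *Fosb* and *Junb* had lower means in Sucnr1-/- mice and *Jun* had a higher one, and only *Jun* had no overlap between genotypes. *Fos*, which encodes the founding FOS subunit, measured 8.20, 6.97, 7.24 and 7.39 in WT replicates 1 to 4 and 7.28, 6.93, 6.77 and 6.09 in Sucnr1-/- replicates 1 to 4. The means were 7.45 ± 0.53 and 6.77 ± 0.50 (SD, n = 4 each), a log2 difference of -0.68 (SE 0.31) or 0.624-fold. It was -0.43 without WT replicate 1, -0.45 without Sucnr1-/- replicate 4, and between -0.85 and -0.68 without any 1 of the other 6 mice. WT replicate 1 stood above all other mice, Sucnr1-/- replicate 4 stood below them, and the other 6 mice overlapped.

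*Fosb*, whose product also pairs with JUN proteins, measured 8.77, 6.95, 6.49 and 6.92 in WT and 8.64, 6.34, 6.83 and 6.79 in Sucnr1-/- mice, again in the order of replicates 1 to 4. Replicate 1 of each genotype was more than 1.5 log2 units above the next mouse of its genotype, and the other 6 lay close together. The means, 7.28 ± 1.01 and 7.15 ± 1.02, differed by -0.13 (SE 0.60, 0.913-fold), far less than the spread between mice. The sign turned to 0.36 without WT replicate 1 and to 0.14 without Sucnr1-/- replicate 2, and the difference was -0.63 without Sucnr1-/- replicate 1.

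*Junb*, a JUN family member that can oppose JUN, measured 9.09, 8.12, 7.59 and 8.17 in WT and 8.995, 7.79, 7.87 and 7.36 in Sucnr1-/- mice. It had the same high pair, replicate 1 of each genotype, and overlapped otherwise. The difference was -0.24 (SE 0.39, 0.848-fold). Without WT replicate 1 it was 0.045 and without Sucnr1-/- replicate 4 it was -0.02, whereas without Sucnr1-/- replicate 1 it was -0.57 and without WT replicate 3 it was -0.46.

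*Jun*, the core AP-1 subunit and a target of the JNK kinases, measured 10.23, 10.18, 9.93 and 10.07 in WT and 10.46, 10.42, 10.31 and 10.33 in Sucnr1-/- mice. All 4 Sucnr1-/- mice were above all 4 WT mice, with a gap of less than 0.1 log2 units between the nearest 2. The means, 10.10 ± 0.13 and 10.38 ± 0.07, differed by 0.28 (SE 0.08, 1.22-fold). Leaving out any 1 mouse kept the difference between 0.22 and 0.32, and the genotypes also stayed apart after each of the 3 other scalings tried. It was by far the least variable of the 4 AP-1 genes.

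**Figure D1:**
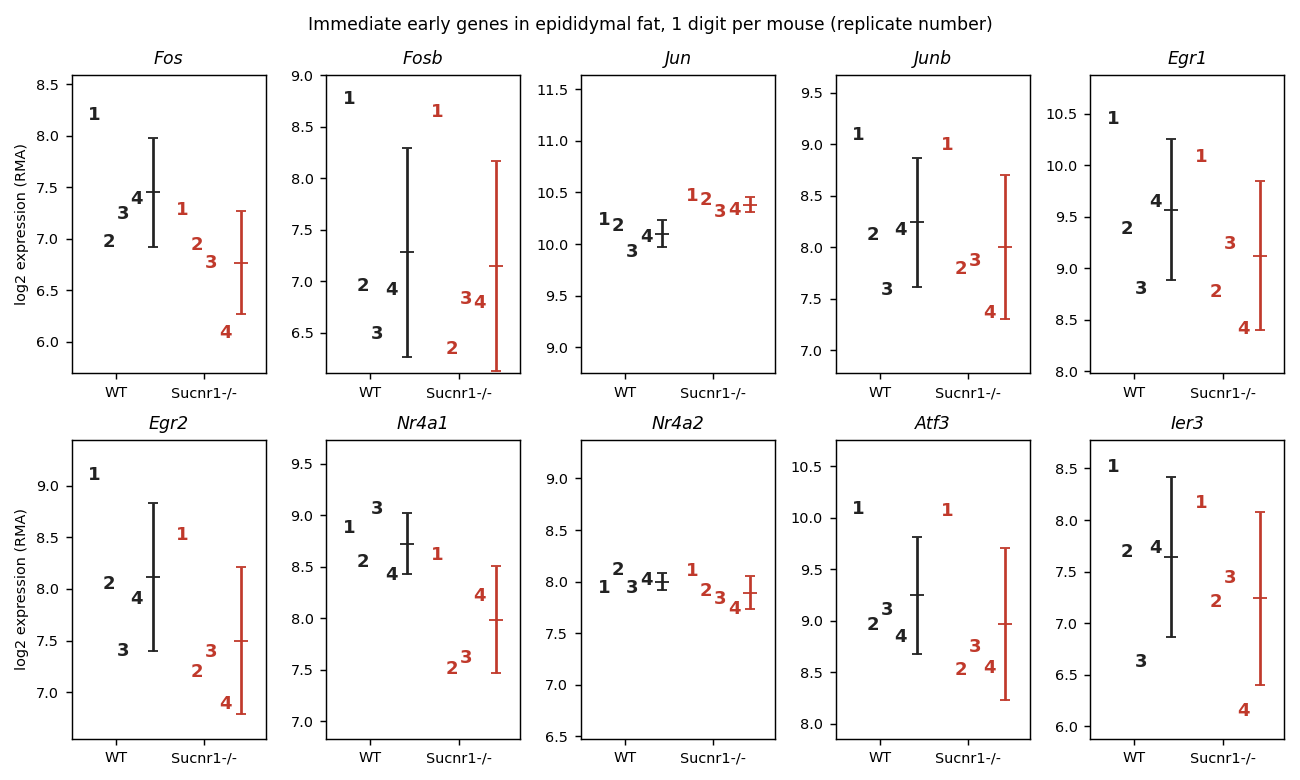
Log2 expression (RMA) of the 10 immediate early genes, 1 panel per gene with vertical axes of equal length. Each digit is 1 mouse by its replicate number, with the mean and SD of 4 mice beside it; the digit 1 lies at the top of both genotypes in 8 panels, and *Jun* is the only gene whose genotypes do not overlap.

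*Egr1* and *Egr2* had lower means in Sucnr1-/- mice, and the genotypes overlapped for both. *Egr1*, a zinc finger factor induced by growth factors and mechanical stress, measured 10.45, 9.38, 8.80 and 9.64 in WT and 10.08, 8.77, 9.24 and 8.41 in Sucnr1-/- mice. The difference was -0.45 (SE 0.42, 0.733-fold), with means of 9.57 ± 0.68 and 9.12 ± 0.72. *Egr2*, its paralogue, measured 9.11, 8.04, 7.40 and 7.90 in WT and 8.52, 7.20, 7.38 and 6.89 in Sucnr1-/- mice. It differed by -0.62 (SE 0.42, 0.652-fold), with means of 8.11 ± 0.72 and 7.50 ± 0.71. Replicate 1 was highest in both genotypes for both genes. Without WT replicate 1 the differences shrank to -0.15 and -0.29, and without Sucnr1-/- replicate 1 they were -0.77 and -0.96. For *Egr1* it was also -0.21 without Sucnr1-/- replicate 4 and -0.70 without WT replicate 3.

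The NR4A receptor genes among the 10 were highest in replicate 1 only among Sucnr1-/- mice, unlike *Egr1* and *Egr2*. *Nr4a3*, which is not among the 10, was highest in replicate 1 of both genotypes. *Nr4a1*, which is induced by cyclic AMP in adipocytes and by activation in macrophages and lymphocytes, measured 8.88, 8.54, 9.06 and 8.42 in WT and 8.61, 7.50, 7.62 and 8.22 in Sucnr1-/- mice. Of the Sucnr1-/- mice, 3 were below every WT mouse and replicate 1 was above 2 of the WT mice. Its difference, -0.74 (SE 0.25, 0.6-fold), was the largest of the 10, with means of 8.72 ± 0.29 and 7.99 ± 0.52. It stayed between -0.95 and -0.58 when any 1 mouse was left out. *Nr4a2* measured 7.93, 8.11, 7.94 and 8.01 in WT and 8.10, 7.91, 7.83 and 7.74 in Sucnr1-/- mice. These 8 values lay within 0.4 log2 units of each other, and the genotypes overlapped, with a difference of -0.11 (SE 0.09, 0.93-fold) that ran from -0.18 without Sucnr1-/- replicate 1 to -0.05 without Sucnr1-/- replicate 4.

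*Atf3*, a stress-induced repressor of inflammatory genes, and *Ier3*, which encodes a short-lived regulator of survival and ERK signalling rather than a transcription factor, followed the EGR genes. *Atf3* measured 10.09, 8.96, 9.10 and 8.85 in WT and 10.06, 8.52, 8.75 and 8.54 in Sucnr1-/- mice. Replicate 1 of each genotype stood about 1 log2 unit or more above the other 3, which spread over less than 0.3 units. The difference of -0.28 (SE 0.39, 0.823-fold) was -0.0021 without WT replicate 1, -0.13 and -0.14 without Sucnr1-/- replicates 2 and 4, and -0.65 without Sucnr1-/- replicate 1. *Ier3* measured 8.51, 7.69, 6.62 and 7.73 in WT and 8.17, 7.21, 7.44 and 6.14 in Sucnr1-/- mice, with a difference of -0.40 (SE 0.48, 0.759-fold). That difference was -0.03 without Sucnr1-/- replicate 4 and -0.11 without WT replicate 1, and it was -0.71 without Sucnr1-/- replicate 1 and -0.74 without WT replicate 3. Replicate 1 was again the highest of each genotype, and the lowest mice were WT replicate 3 and Sucnr1-/- replicate 4.

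**Figure D2:**
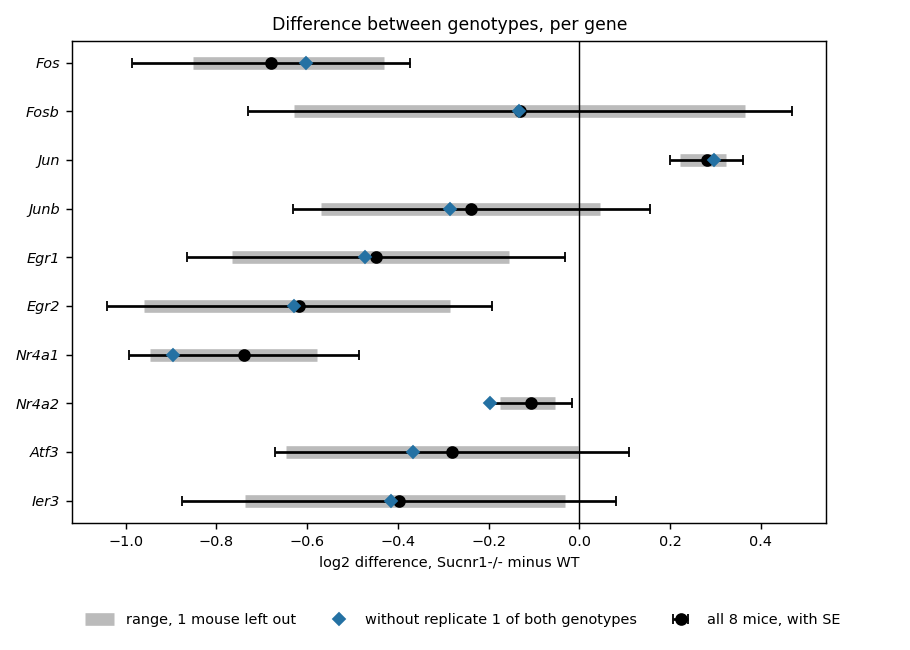
Log2 difference between genotypes (Sucnr1-/- minus WT) of each immediate early gene. Black points with bars are all 8 mice with the SE, grey bars the range when 1 mouse was left out, and blue diamonds the value without replicate 1 of both genotypes; the grey bars of *Fosb* and *Junb* cross 0, and that of *Jun* stays above 0.

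In all, the mean was lower without SUCNR1 for 9 of the 10 genes and higher for 1, where 46.8% of all genes had a lower mean. The median difference of the 10 was -0.34 on the log2 scale, beside 0.0092 over all genes. The 4 Sucnr1-/- mice were all above the 4 WT mice in 1 of the 10 genes, against 2.37% of all genes, and all below them in none, against 1.87%. Since the genes were picked on this contrast, nothing is read from these counts. The median difference was -0.12 without WT replicate 1, with 7 of the 10 lower, and -0.68 without Sucnr1-/- replicate 1, with 9 lower. It was -0.10 without Sucnr1-/- replicate 4, -0.54 without WT replicate 3, and -0.39 without replicate 1 of both genotypes. In whole tissue, fewer cells of a type and less mRNA per cell cannot be told apart.

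The immediate early genes differed more between mice of the same genotype than most genes did. The median SD within genotype was 0.66 log2 units over the 10 genes and 0.135 over all genes. *Fosb* was the most variable, with only 0.717% of all genes above it. The same share was 1.17% for *Ier3*, 1.52% for *Egr2*, 1.59% for *Egr1*, 1.86% for *Junb* and 1.89% for *Atf3*. *Fos* (3.13%) and *Nr4a1* (4.78%) came next. *Nr4a2* and *Jun* were ordinary in this respect, since 55.7% and 66.8% of genes had a larger spread.

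**Figure D3:**
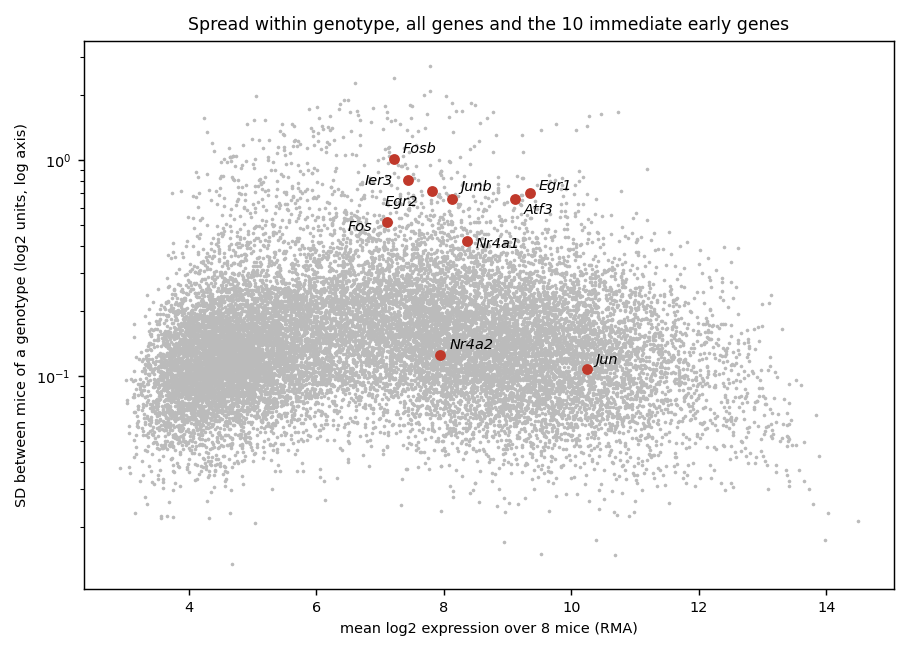
SD between mice of a genotype (log2 units, log axis) against mean log2 expression over 8 mice for 18820 genes (grey) and the 10 immediate early genes (red). *Nr4a2* and *Jun* lie within the bulk of genes of their level, and the other 8 lie at its upper edge or above, from *Nr4a1* to *Fosb* at 1.02.

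The spread was shared between genes, because the same mice were high or low in most of them. WT replicate 1 was the highest WT mouse for 8 of the 10 genes, all but *Nr4a1* (highest in WT replicate 3) and *Nr4a2* (highest in WT replicate 2). Sucnr1-/- replicate 1 was the highest Sucnr1-/- mouse for all 10. Both held for 8 of the 10, against 13.2% of all genes. The 16 possible pairs of a WT and a Sucnr1-/- mouse were each highest in 3.17 to 13.2% of all genes, so this pair was also the most frequent over the whole array. At the other end, WT replicate 3 and Sucnr1-/- replicate 4 were each lowest of their genotype for 6 genes. The median deviation of the 10 genes from their mean over 8 mice was 1.03 log2 units in WT replicate 1 and 0.72 in Sucnr1-/- replicate 1. It lay between -0.36 and 0.07 in the other WT mice and between -0.67 and -0.30 in the other Sucnr1-/- mice. Replicate numbers are names here, and no source used here says that mice of the same number were handled together.

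Over the 8 mice, *Fosb*, *Junb*, *Egr1*, *Egr2*, *Atf3* and *Ier3*, a set of 6 formed after their values were seen, moved most closely together. Their 15 pairs had a median Pearson r of 0.911 (0.737 to 0.97) and a median Spearman rho of 0.905, given as a description since the points share libraries. Without replicate 1 of both genotypes the median r was 0.584 (0.199 to 0.979), so part of the likeness rested on those 2 mice. *Fos* followed the 6 with a median r of 0.791. *Nr4a2* (0.587) and *Nr4a1* (0.436) followed them less closely over the 8 mice. With replicate 1 of both genotypes left out, *Nr4a2* had a median r of 0.724 with the 6 (0.25 to 0.929). *Fos* then had 0.669 (-0.096 to 0.709) and *Nr4a1* 0.128 (-0.196 to 0.805). *Jun* had a median r of only 0.141 with the 6 when both genotypes were pooled.

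When each value was taken as a deviation from its genotype's mean, the median r of *Jun* with the 6 was 0.742 (0.548 to 0.787). This likeness leaned on replicate 1 of both genotypes. Without those 2 mice it had a median of 0.504, from -0.607 with *Atf3* to 0.698 with *Egr2*, an alternative added after seeing the data. Pooled over genotypes, the median without them was -0.257 (-0.909 to -0.052). For deviations from genotype means, pairs among the 6 themselves had a median r of 0.935 (0.719 to 0.993). Without those 2 mice it was 0.513, from -0.242 (*Junb* with *Atf3*) to 0.99 (*Junb* with *Ier3*). Leaning on those 2 mice was therefore not particular to *Jun*. Among Sucnr1-/- replicates 2 to 4, *Jun* was highest in replicate 2, where *Fosb* and *Atf3* were lowest. The mice ranked 1, 2, 4, 3 from high to low for *Jun* in both genotypes. The steps were small: the range was 0.304 log2 units in WT and 0.152 in Sucnr1-/- mice, against 2.28 and 2.30 for *Fosb*. The difference between genotypes of *Jun* was thus about as large as its whole range among WT mice, whereas that of *Fosb* was a small part of its range.

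**Figure D4:**
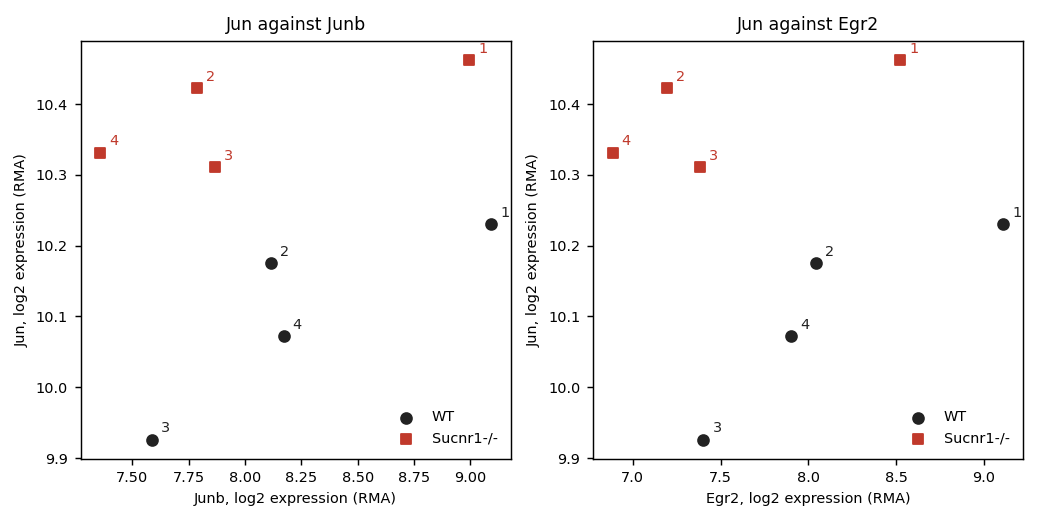
Log2 expression of *Jun* against *Junb* (left) and *Egr2* (right), 1 point per mouse with its replicate number, black circles for WT and red squares for Sucnr1-/-. The Sucnr1-/- mice lie above the WT mice on the *Jun* axis in both panels, and the highest *Jun* value of each genotype is in replicate 1.

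Other immediate early genes were often highest in the same 2 mice, replicate 1 of each genotype, here called the mouse pattern. Of 20 other immediate early transcription factors, 19 were measured. Their median difference was -0.11 with 16 lower and 3 higher means, and none reached an unadjusted p under 0.05. The 2 of smallest p in this list were *Klf10*, a TGF-β-inducible factor, at -0.17 (SE 0.08), and *Nr4a3*, the remaining NR4A receptor, at -0.61 (SE 0.32). Replicate 1 was highest in both genotypes for 11 of the 19 (57.9%). Of 19 measured immediate early genes of other kinds, 10 had higher and 9 lower means, with a median of 0.0003, and 14 (73.7%) had the mouse pattern. One of these, the kinase gene *Sgk1*, passed the unadjusted threshold as lower at -0.15 (SE 0.06), without overlap between genotypes, and *Rhob*, a small GTPase gene, passed it as higher at 0.16 (SE 0.07). For these lists and those below, the shares over all genes were 3.46% past the threshold as higher and 3.36% as lower. A lower mean was found in 46.8% of all genes, and all Sucnr1-/- mice lay below all WT mice in 1.87%. With lists this short, nothing is read from 1 gene past the threshold.

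The feedback inhibitors, the phosphatases, Sprouty proteins and RNA-binding proteins that end the response, had lower means for 17 of 21 genes and a median of -0.15. Among them 1 passed the unadjusted threshold, the JNK and p38 phosphatase gene *Dusp8*, as higher at 0.37 (SE 0.15), where 3.46% of all genes did. *Dusp4*, an ERK phosphatase gene, was at -0.62 (SE 0.31). The mouse pattern was present in 13 of the 21 (61.9%). In the kinases upstream the differences ran from -0.39 to 0.19. Of 22 measured genes of the MAP kinase cascade 16 had lower means, and 3 passed the unadjusted threshold as lower, where 3.36% of all genes did. The count past the threshold in this list was 1 without Sucnr1-/- replicate 2, 3 or 4, and it was 1 with centring over the genes kept and 5 with centring over all probe sets. The 3 included *Map2k4*, a kinase that activates JNK, at -0.26 (SE 0.08) and no overlap, and *Map3k1*, which acts above it, at -0.22 (SE 0.09). The 18 measured factors already bound at these promoters, such as SRF, CREB and their co-activators, had a median of -0.02 with none past the threshold. *Mrtfb* and *Mrtfa*, the actin-sensing co-activators of SRF, were each at -0.12 (SE 0.07 and 0.08), and 3 of the 18 (16.7%) had the mouse pattern.

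The other basic leucine zipper genes, whose products can pair with FOS, JUN or ATF3, had lower means for 13 of 16, a median of -0.08 and no gene past the threshold. *Batf* was at -0.22 (SE 0.13) and *Batf2* at -0.29 (SE 0.17), and 8 of the 16 (50%) had the mouse pattern. The rapidly induced cytokines, growth factors and adhesion molecules had the lowest median of the 10 lists, -0.37, with 17 of 18 means lower and none past the threshold. In this list *Vcam1*, an endothelial adhesion molecule, was at -0.23 (SE 0.13), and *Lif*, an interleukin-6 family cytokine, was at -0.32 (SE 0.21). Its share with the mouse pattern, 15 of 18 (83.3%), was the highest of the 10 lists. Its median was -0.09 without WT replicate 1, -0.18 without Sucnr1-/- replicate 4, -0.70 without Sucnr1-/- replicate 1 and -0.66 without WT replicate 3.

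Lists of other stress programmes differed in how far they shared the mouse pattern. Heat shock genes had it in 8 of 13 (61.5%), with a median difference of -0.10 and none past the threshold. *Dnajb4*, an HSP40 co-chaperone gene, was at 0.19 (SE 0.11) and *Ahsa1*, an HSP90 co-chaperone gene, at -0.15 (SE 0.09). Glucocorticoid response genes had it in 4 of 16 (25%), with 8 means higher and 8 lower. The 4 were *Mt1*, *Mt2*, *Cdkn1a* and *Lcn2*. Going the other way, *Tsc22d3*, *Per1* and *Zbtb16* were lowest in replicate 1 of both genotypes. *Zbtb16*, a zinc finger repressor and known glucocorticoid target, passed the unadjusted threshold as higher at 0.45 (SE 0.20). *Sgk1*, which is in this list too, passed it as lower. Of all genes, 3.46% passed as higher and 3.36% as lower. Genes of the integrated stress response had it in 3 of 13 (23.1%), with *Sesn2*, an ATF4 target that restrains mTORC1, past the threshold as higher at 0.45 (SE 0.17). *Eif2ak3*, which encodes the endoplasmic reticulum stress kinase PERK, was at -0.12 (SE 0.06). With 1 mouse left out, the genes past the unadjusted threshold numbered 0 to 5 among feedback inhibitors, 1 to 4 in the MAP kinase list and 0 to 3 in each of the other 8 lists. No gene of the 10 lists passed after adjustment, the lists share several genes, and the medians of 4 lists (glucocorticoid, integrated stress, promoter-bound factors and other immediate early genes that are not transcription factors) changed sign under at least 1 setting.

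**Figure D5:**
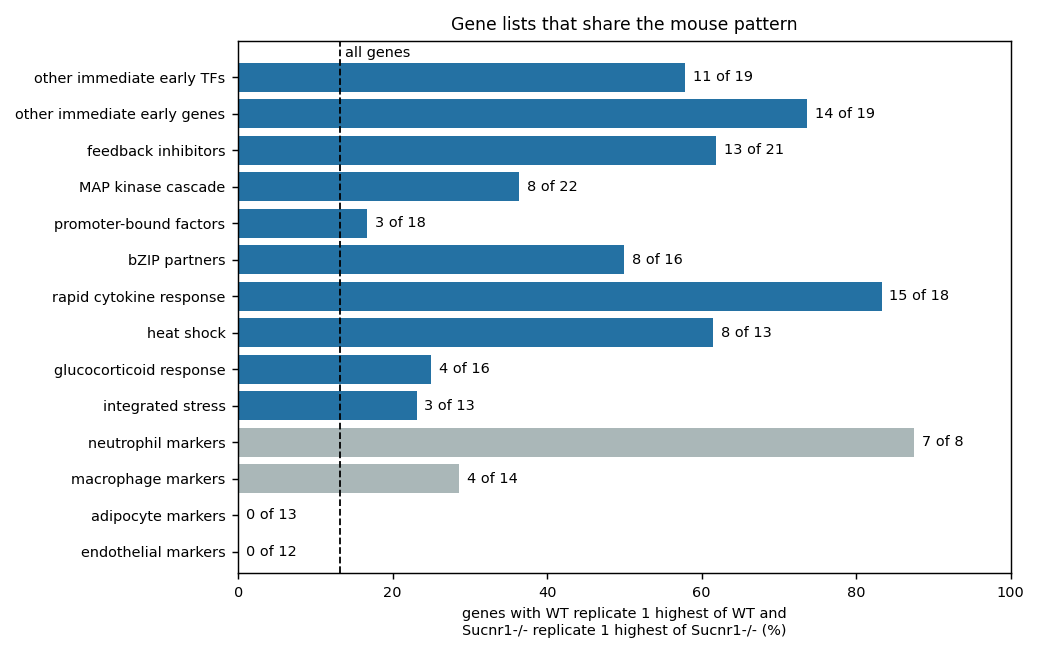
Percentage of the measured genes of 10 pathway lists (blue) and 4 cell type marker lists (grey) that were highest in WT replicate 1 among WT mice and in Sucnr1-/- replicate 1 among Sucnr1-/- mice; the number of genes stands beside each bar. The dashed line is the share over all genes, 13.2%; adipocyte and endothelial markers are at 0 and the rapid cytokine list is at 83.3%.

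Markers of some immune cells followed the same mice. The summed level of 8 measured neutrophil markers was 10.8 in WT replicate 1 and 11.8 in Sucnr1-/- replicate 1, and 8.86 to 9.62 in the other 6 mice. Of these markers 7 (87.5%) were highest in replicate 1 of both genotypes, as were 6 of 8 B cell markers and 5 of 8 dendritic cell markers. Mean log2 expression of the neutrophil markers ran from 3.89 to 7.65. Their part in the mouse pattern was not tested. None of the 13 adipocyte, 12 endothelial, 10 stromal or 10 mesothelial markers measured had the pattern. Macrophage markers had it in 4 of 14. Between genotypes, 12 of the 14 macrophage marker means were lower in Sucnr1-/- mice. At an unadjusted p under 0.05, 5 were lower, where 3.36% of all genes were, and 1 was higher, where 3.46% were, and none passed after adjustment. The summed level was 14.538 to 14.887 in WT and 14.246 to 14.505 in Sucnr1-/- mice, without overlap. Means of mast cell markers were lower for 8 of 8, with 4 past the unadjusted threshold and summed levels of 10.4 to 10.8 in WT and 9.82 to 10.6 in Sucnr1-/- mice. Those 4, *Cpa3*, *Mcpt4*, *Cma1* and *Tpsb2*, did not overlap between genotypes, all Sucnr1-/- mice being below, as in 1.87% of all genes. The remaining mast cell markers overlapped. Among them *Hdc* was highest in replicate 1 of both genotypes, at 8.94 in WT and 9.42 in Sucnr1-/-. B cell markers had lower means for 8 of 8 as well, with the lowest median of all lists, -0.72, 1 past the threshold, and summed levels of 9.30 to 11.7 and 8.58 to 10.1. Lower means were also found for 7 of 8 dendritic cell markers (median -0.26, 1 past the threshold), 7 of 9 T and NK cell markers (median -0.13) and 9 of 10 mesothelial markers (median -0.19), the last 2 lists with none past it. The summed levels of these 3 lists overlapped between genotypes. Neutrophil markers differed in direction, with higher means for 5 of 8 and lower means for 3, a median of 0.13 and none past the threshold. The part of all these cells in the lower means of the immediate early genes was not tested.

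The genes most like *Fos* and *Jun* over the 8 mice were taken from 9159 candidates at or above the median level, leaving out the 10 immediate early genes. *Rsl1d1*, a nucleolar protein gene, had the highest Pearson r with *Fos*, 0.987, followed by *Ttc39b*, *Klrb1b*, *Ecd*, *Elf1*, *Naf1*, *Capza2*, *Usp42*, *Fam185a* and *Slc35f6*, the last at 0.97. Likeness to *Fos* was common, with 2.45% of candidates above an r of 0.9. Likeness to *Jun* was rare, at 0.0546%. The genes nearest to *Jun* were *Pias4*, a SUMO ligase gene (0.966), *Lsm12* (0.943) and *Hcar1* (0.917), the adipocyte lactate receptor gene, followed by *Rab14*, *Lamtor5*, *Rplp2*, *Rasip1*, *St3gal4*, *Mrps30* and *Scarna13* (0.88). An r over the 8 mice also takes in the difference between genotypes on which the immediate early genes were picked. For deviations from genotype means, r with *Jun* ran from 0.546 (*Scarna13*) to 0.928 (*Rab14*) over its 10 genes. With *Fos* it ran from 0.958 (*Slc35f6*) to 0.981 (*Rsl1d1*). These values describe 8 shared arrays and carry no test.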

How the data were processed

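Total RNA of epididymal fat from 8 mice was profiled, 1 array per mouse. The deposited values are log2 expression, which the authors made with RMA according to the submitters' processing notes (version not given in the sources used here). RMA normalizes arrays together, so differences in total signal are removed and low values are compressed. Precision depends on how many arrays there were, and scan dates were not used here. Groups and replicate numbers came from the labels.

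Of 35556 probe sets, 21218 carried exactly 1 gene symbol, 1881 several and 12457 none. The brightest was kept for each of 18820 genes. Genotypes were compared in R 4.3.3 with limma 3.58.1 (lmFit and eBayes, no covariate, adjustment by Benjamini-Hochberg), tested on simulated data. *Sucnr1* had an exact permutation test (scipy 1.17.1). The members and all lists were chosen with earlier results of these data known, and several came from an earlier analysis of them. Genes named were the 10 immediate early genes, *Sucnr1*, the 2 of smallest p per pathway list, and the 10 most correlated with *Fos* and with *Jun* at or above the median level, without predicted, olfactory and vomeronasal genes. Some genes of the glucocorticoid and mast cell lists were also named, after their values were seen. Alternatives were other scalings, probe set rules, filters, priors, tests, a replicate block and mice left out.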

Additional observations from a re-analysis of the deposited data

Results flagged for a closer look

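*Atf3* in Sucnr1-/- mice stood out because 1 mouse lay far from the others. Replicate 1 measured 10.06 on the log2 scale and the other 3 mice 8.52 to 8.75, and the gap to the nearest was 0.855 of the whole range. Of 22 groups of 4 mice examined this way (10 immediate early genes and *Sucnr1* in each genotype), 1 stood out, where chance gives about 1 in 20.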

How the results depend on the processing

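Under the 14 alternatives run for them, the median difference of the 10 immediate early genes stayed below 0 and the number with lower means was 7 to 9. The mean of probe sets and the replicate block could not change these values. Each of the 10 genes had 1 probe set, and every replicate number occurred once per genotype. Since the genes were picked on this contrast, the kept sign is a description and no support for it. With 1 mouse left out the median ranged from -0.68 to -0.10. *Fosb* and *Junb* were the only members whose sign turned, in 2 and 1 of the alternatives. The number of genes past an adjusted p under 0.05 was 0 in every fit. Unadjusted counts moved more: 355 higher and 979 lower with median centring over all probe sets, 1352 and 330 with centring over the genes kept (added after seeing the data), 369 and 535 without the dimmest 40% of genes, and 809 and 1096 with the replicate block. The cause of these shifts was not tested, apart from the fewer genes fitted without the dim ones. Deviations of same-numbered mice from their genotype means correlated at 0.454, 0.141, 0.106 and 0.015, and not every mouse correlated best with its own number, so the numbers were not taken as pairs. With the block, feedback inhibitors past the unadjusted threshold went from 1 to 8. Leaving out 1 mouse gave 440 to 870 higher and 368 to 885 lower, the lowest of both without Sucnr1-/- replicate 2. With 4 mice per genotype, 7 of the 10 differences were smaller than the gene's own SD within genotype.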
